A study of Homo sapiens with 3 samples.

Results

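Kinesins are motor proteins that walk along, or take apart, microtubules. The genes described here are all those in the probe-to-gene table of the array whose symbol begins with KIF and a digit, or is KIFC1, KIFC2 or KIFC3. The rule found 45 genes among 19775 named genes, read by 91 probe sets. Of these, 13 were classed as mitotic, 17 as transport and 11 as kinesins of cilia, microtubule depolymerization or less studied roles, and 4 were antisense transcripts named after a kinesin.

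The samples were 3 cultures of IMR-90 ER:Ras cells, human lung fibroblasts that carry an inducible Ras protein. Such constructs fuse Ras to the ligand-binding domain of the estrogen receptor, which keeps Ras inactive until 4-hydroxytamoxifen (4-OHT) is added. One culture was growing. The culture in oncogene-induced senescence (OIS) was kept for 6 days in 100 nM 4-OHT, and the culture in replicative senescence (RS) was passaged for 10 weeks. All 3 carry the ER:Ras construct, and neither the growing nor the RS culture is labelled as treated with 4-OHT. Each condition had 1 array, so no difference between conditions has a replicate check and no p-value is given.

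A kinesin has a motor domain that binds microtubules and hydrolyses ATP, and a tail that sets what it carries or where it acts. Mitotic kinesins build the bipolar spindle, move and align chromosomes, and organise the midzone at which the cell divides; their mRNA peaks late in the cell cycle in dividing cells. Transport kinesins carry mitochondria, vesicles, endosomes and ciliary proteins along microtubules in cells whether or not they divide. Several of them, such as KIF1A, KIF5A and KIF5C, are best known from neurons.

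Values are the deposited linear MAS5 signals, and a gene is represented by its brightest probe set. Signals under 45.5, the median of all signals on the 3 arrays, were raised to that floor before log2 ratios were formed, and a gene above the floor on at least 1 array counts as measured. Where the dimmer of the arrays compared was not above the floor, the fold is a lower bound and is written as "at least". The arrays were alike in scale, with 49.8% to 50.3% of probe sets above the floor and median signals of 44.9 to 46.2. The spread between the best 2 probe sets of a gene, from 6759 genes, was an SD of 0.36 log2 units for OIS over growing, 0.33 for RS over growing and 0.37 for OIS over RS. It covers probe error, not differences between cultures.

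Of the 45 kinesin genes, 34 were measured: 12 mitotic, 13 transport, 7 of the third class and 2 antisense transcripts. The other 11 were not above the floor on any array, with brightest probe sets between 0.3 and 38.2. They were the testis-associated mitotic kinesin KIF2B, the transport kinesins KIF1A, KIF5A, KIF17 and KIF21B, then KIF12, KIF24, KIF26A and KIF27, and the antisense transcripts KIF1C-AS1 and KIF23-AS1. KIF4B, a near-identical intronless copy of KIF4A, has no probe set naming it, and whether the KIF4A probe set also reads it was not tested.

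All 12 measured mitotic kinesins had far lower signals in both senescent cultures, whereas the transport kinesins lay around their growing level. In OIS 12 of 12 mitotic kinesins were at least 2-fold lower, against 6.63% of the 13466 measured genes, and the class median was -2.85 log2 units. In RS 12 of 12 were at least 2-fold lower, against 5.58% of measured genes, with a median of -2.52. None of the 12 was higher. The classes were set with earlier results of these data known, so the 12 of 12 depends on where the class ends. KIF2A, which also acts at spindle poles, was classed elsewhere and was 1.23-fold lower in OIS and 1.55-fold lower in RS. The median over all measured genes was 0.00 in each comparison. Both ratios divide by the same growing array, so the counts for OIS and RS are not independent of each other. In bulk RNA, fewer dividing cells and less mRNA per cell cannot be told apart.

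**Figure D1:**
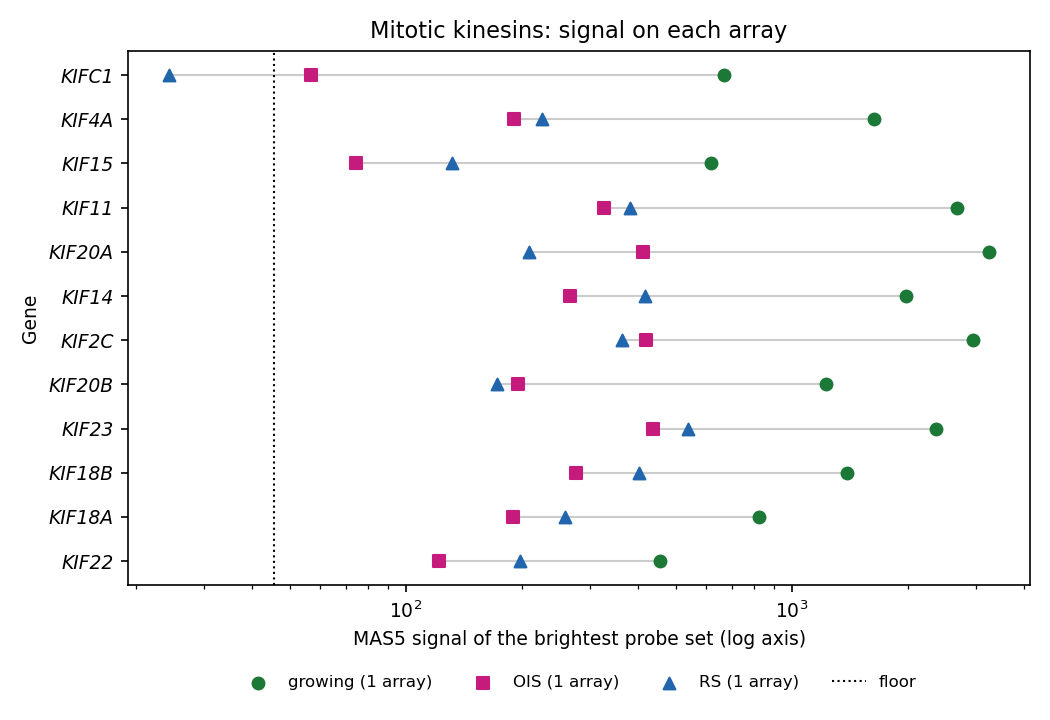
Signal of the brightest probe set of each measured mitotic kinesin on the growing (circles), OIS (squares) and RS (triangles) arrays, 1 array each, on a log axis; grey lines join the lowest and highest value and the dotted line is the floor of 45.5. The growing array is the highest for all 12 genes, and the order of the OIS and RS arrays differs from gene to gene.

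The motors that set up the bipolar spindle were lower in both cultures. KIF11 (Eg5), which pushes the spindle poles apart, had signals of 2673 when growing, 325 in OIS and 382 in RS. It was therefore 8.22-fold lower in OIS, and its log2 ratio in RS was -2.81. KIF15, a motor that can maintain bipolarity alongside KIF11, read 617 on the growing, 74.3 on the OIS and 131 on the RS array. Its OIS signal was the lower of the senescent pair, with 8.30-fold lower in OIS and 4.70-fold lower in RS. KIFC1 (HSET), a minus-end motor that focuses the poles, had signals of 667 when growing, 56.9 in OIS and 24.4 in RS. It was 11.7-fold lower in OIS and at least 14.7-fold lower in RS, where it lay under the floor. From the lowest ratio upward, KIFC1 ranked 9 of 13466 measured genes in OIS and 4 in RS.

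The chromokinesins, which bind chromosome arms, differed in size of effect. KIF4A, which also shortens midzone microtubules, read 1632 on the growing, 191 on the OIS and 225 on the RS array. Its senescent signals were close to each other, 8.55-fold and 7.26-fold below growing cells. KIF22 (Kid), which pushes chromosomes towards the spindle equator, had signals of 456 when growing, 122 in OIS and 198 in RS. With 3.75-fold lower in OIS and 2.30-fold lower in RS, KIF22 had the smallest difference of the 12 in each culture.

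Lower signals in both cultures were also found for the kinesins that act on microtubule ends. KIF2C (MCAK), a depolymerase of the centromere that corrects faulty attachments, read 2943 on the growing, 419.9 on the OIS and 364 on the RS array. That placed it 7.01-fold lower in OIS and 8.09-fold lower in RS. KIF18A, which dampens chromosome oscillation at metaphase, had signals of 824 when growing, 189 in OIS and 258 in RS, or 4.36-fold and 3.20-fold lower. KIF18B, which limits the length of astral microtubules, read 1390.0 on the growing, 276 on the OIS and 401 on the RS array, or 5.04-fold and 3.46-fold lower. Both KIF18 genes sat nearer to growing cells than KIF2C did.

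Midzone and cytokinesis kinesins were lower in both senescent cultures, by different amounts in each. KIF20A (MKLP2), which brings the chromosomal passenger complex to the midzone, had signals of 3240 when growing, 411 in OIS and 208 in RS. It was 7.89-fold lower in OIS and 15.6-fold lower in RS, where it ranked 3 from the lowest of all measured genes with bounds taken at the floor. KIF20B (MPP1), which takes part in the last steps of cytokinesis, read 1225 on the growing, 195 on the OIS and 172 on the RS array, or 6.27-fold and 7.11-fold lower. KIF23 (MKLP1), the motor of the centralspindlin complex, had signals of 2361 when growing, 437 in OIS and 538 in RS, or 5.41-fold and 4.39-fold lower. KIF14, which recruits citron kinase to the midbody, read 1972 on the growing, 266 on the OIS and 418 on the RS array, or 7.41-fold and 4.72-fold lower. KIF20A and KIF20B were dimmer in RS than in OIS, while KIF23 and KIF14 were dimmer in OIS. Of these genes, KIF20A and KIF14 alone differed by more than the probe set SD of 0.37 log2 units. The second KIF14 probe set read 159 in OIS and 161 in RS.

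Compared directly, the OIS and RS arrays gave mitotic kinesins smaller ratios to each other than to growing cells. Of the 12, 8 were lower in OIS than in RS and 4 lower in RS, with 0 of 12 past 2-fold in either direction, against 5.27% of measured genes at least 2-fold lower and 5.48% at least 2-fold higher in OIS. The median log2 ratio of OIS over RS was -0.27. The probe set SD of 0.37 applies to the ratio of a single gene and does not measure the spread of this median. KIFC1, under the floor in RS, is a bound of at least 1.25-fold higher in OIS and passed 2-fold with the floor at the 25th percentile. Among the other 11, KIF20A had the largest difference, 1.97-fold higher in OIS, and KIF15 followed in the other direction at 1.77-fold lower in OIS. For 6 of the 12 the log2 ratio exceeded the probe set SD, but the share of all measured genes that did so was not counted. KIF14 and KIF22 were among the 6, at -0.65 and -0.71 by the brightest probe set. Their second probe sets gave -0.018 and -0.005.

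**Figure D2:**
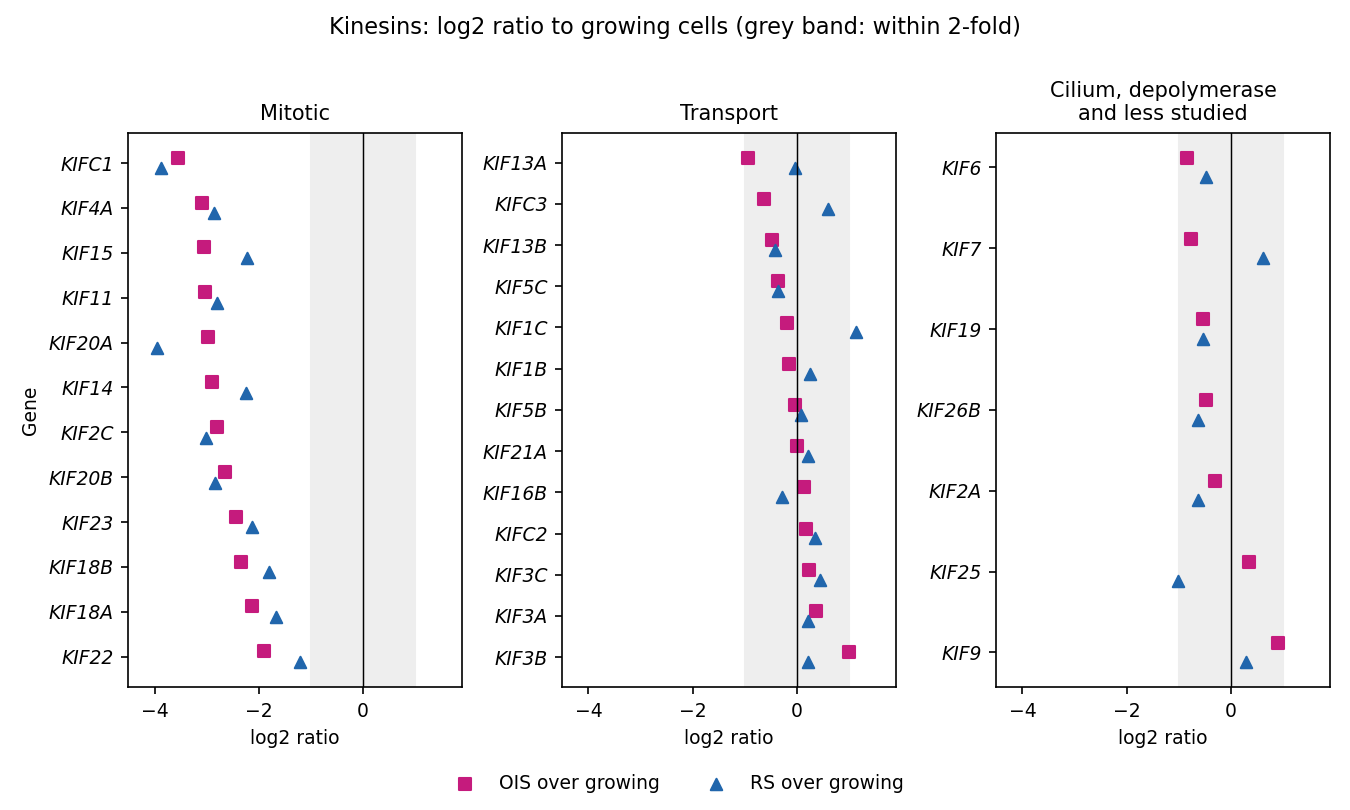
Log2 ratio to growing cells of each measured kinesin gene in OIS (squares) and RS (triangles), by class; the grey band spans less than 2-fold and each point is a ratio of 2 single arrays. All mitotic kinesins lie left of the band in both cultures, while transport kinesins lie inside it except KIF1C in RS.

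A second probe set above the floor was present for 4 mitotic kinesins, and its sign was the same for all 4 in OIS and in RS. Both probe sets were at least 2-fold lower for KIF2C and KIF14. The second probe set of KIF2C gave log2 ratios of -2.07 in OIS and -2.58 in RS, and that of KIF14 gave -2.47 and -2.46. For KIF22 the second probe set gave -0.57 in both cultures, from signals of 124 when growing, 83.2 in OIS and 83.5 in RS. The KIF22 difference is thus past 2-fold by its brightest probe set alone. For KIF23 the second probe set read 87.7 in growing cells and lay under the floor in OIS and RS, so its log2 ratio of -0.95 is a bound set by the floor. The other 2 probe sets of KIF20B were under the floor on all arrays, and the remaining 7 mitotic kinesins had 1 probe set each.

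Promoters of the class were read because its members were lower together. Many late cell cycle genes carry near their start a cell cycle genes homology region (CHR), the element to which the MuvB complexes bind, and a CCAAT box, bound by NF-Y. RefSeq promoter windows of GRCh38.p14, from 250 bases before to 50 bases after a gene's start, were searched on both strands for the CHR letters TTTGAA or TTCGAA and for CCAAT. No CHR match overlapped a CCAAT match in these genes, and TTCGAA reads the same on both strands. A match is a run of letters, not a shown binding site. Other forms of the CHR were not searched for, so a gene without CHR letters has neither TTTGAA nor TTCGAA in its window. In the stretches that follow, the 100 bases before the start are printed 5′ to 3′ on the gene's strand, with matched letters in capitals. TTCAAA and ATTGG are the reverse complements of the CHR and CCAAT letters. The first 6 hold CHR letters before the start, KIF20A is the mitotic kinesin with the lowest RS ratio and no CHR letters, and KIF5B and KIF3B are transport kinesins shown for contrast.
KIF11 (chr10:92593030-92593129, plus strand): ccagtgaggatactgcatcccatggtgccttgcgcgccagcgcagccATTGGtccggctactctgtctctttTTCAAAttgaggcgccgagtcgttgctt
KIF4A (chrX:70290004-70290103, plus strand): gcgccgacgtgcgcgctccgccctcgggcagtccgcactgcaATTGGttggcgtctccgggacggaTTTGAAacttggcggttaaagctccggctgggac
KIF15 (chr3:44761694-44761793, plus strand): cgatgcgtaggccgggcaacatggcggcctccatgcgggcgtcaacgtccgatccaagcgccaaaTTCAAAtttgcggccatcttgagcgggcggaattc
KIF23 (chr15:69414249-69414348, plus strand): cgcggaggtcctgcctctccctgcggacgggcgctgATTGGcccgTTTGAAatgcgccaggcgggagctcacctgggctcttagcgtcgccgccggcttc
KIF18A (chr11:28108157-28108256, minus strand): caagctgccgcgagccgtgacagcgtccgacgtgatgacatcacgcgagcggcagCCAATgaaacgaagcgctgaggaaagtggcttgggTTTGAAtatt
KIF22 (chr16:29790651-29790750, plus strand): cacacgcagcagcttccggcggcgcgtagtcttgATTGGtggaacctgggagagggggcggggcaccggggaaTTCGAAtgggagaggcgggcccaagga
KIF20A (chr5:138179012-138179111, plus strand): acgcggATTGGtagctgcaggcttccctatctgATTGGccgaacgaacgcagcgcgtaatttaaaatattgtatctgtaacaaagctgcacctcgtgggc
KIF5B (chr10:32056426-32056525, minus strand): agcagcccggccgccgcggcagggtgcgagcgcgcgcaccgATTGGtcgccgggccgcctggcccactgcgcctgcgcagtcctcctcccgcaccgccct
KIF3B (chr20:32277551-32277650, plus strand): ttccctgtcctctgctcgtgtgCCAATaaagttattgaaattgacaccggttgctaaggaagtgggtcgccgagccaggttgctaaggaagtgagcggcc

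CHR letters were present in the window of 10 of the 12 measured mitotic kinesins, and CCAAT letters in 10 of 12, with both in 9. Among 15842 protein-coding genes with a window, 17.5% held CHR letters, 42.1% CCAAT letters and 7.28% both; over all 35116 windows the shares were 16.4%, 34.6% and 6.38%. Of 10 measured transport kinesins with a window, 1 held CHR letters and 4 held CCAAT letters. The 10 mitotic kinesins with CHR letters all had them within 60 bases of the start, a distance set after the positions were seen, against 5.66% of protein-coding genes and 0 of the 10 transport kinesins.

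The spacing can be read in the printed stretches. In KIF11 the CHR letters begin 28 bases before the start and the CCAAT letters 53 bases before it. In KIF4A they begin 34 and 58 bases before the start, in KIF18A 10 and 45, in KIF22 27 and 66, and in KIF23 55 and 64. KIF15 has CHR letters 35 bases before the start and no CCAAT letters. In KIF14, KIF18B and KIFC1 the CHR letters begin 1, 2 and 4 bases after the first transcribed base, and in KIF20B 24 and 30 bases after it. KIF20A held CCAAT letters 67 and 94 bases before the start and neither TTTGAA nor TTCGAA, and KIF2C held none of the searched letters. Whether either gene has another form of the CHR was not tested. KIF5B, the transport kinesin with CHR letters, has them 140 bases before the start and outside the stretch shown. KIF22 has a second annotated start, from which the same CHR letters lie 244 bases upstream. KIF13B, KIFC2 and KIFC3 had no window among the measured transport kinesins.

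**Figure D3:**
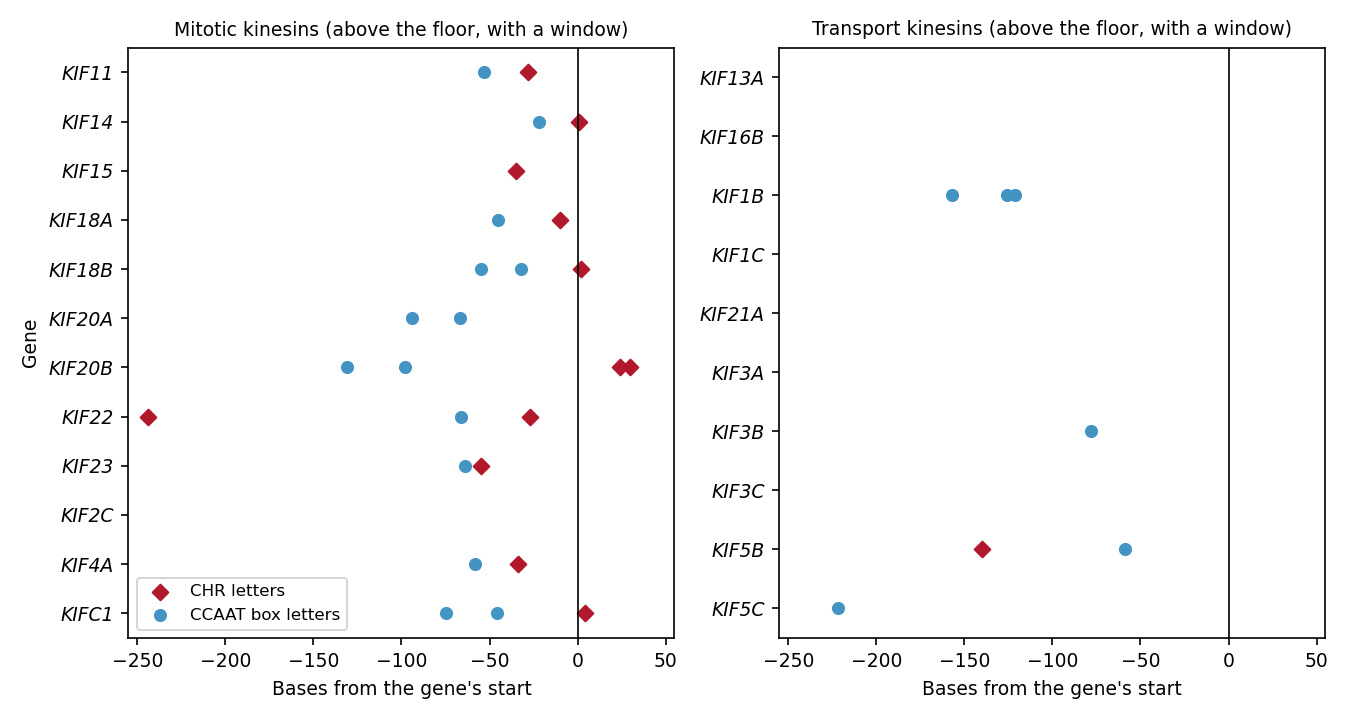
Distance from the gene's start, in bases, of the first base of CHR letters (diamonds) and CCAAT letters (circles) in RefSeq windows of measured mitotic and transport kinesins, over all annotated starts of a gene. CHR letters cluster near the start in 10 of 12 mitotic kinesins, and among the transport kinesins they appear in KIF5B, 140 bases before it.

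Transport kinesins had a median log2 ratio of -0.04 in OIS, where 0 of 13 were at least 2-fold lower and 0 at least 2-fold higher. Of all measured genes 6.63% were at least 2-fold lower and 4.92% at least 2-fold higher in that comparison. In RS the median was 0.21, with 0 of 13 lower and 1 of 13 higher, against 3.72% of measured genes at least 2-fold higher. The mitotic median minus the transport median was -2.81 log2 units in OIS and -2.74 in RS. By brightest probe set and with the floor in place, the mitotic ratio nearest to growing cells was -1.91 in OIS and -1.20 in RS, both of KIF22, and the lowest transport ratio was -0.95 in OIS, of KIF13A, and -0.42 in RS, of KIF13B. That separation depends on the floor and the probe set. KIF5C is a bound here and was at least 2-fold lower in both cultures with the floor at the 25th percentile, and the second probe set of KIF13A, at -1.83 in OIS, lay below that of KIF22, at -0.57.

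The conventional kinesin heavy chain KIF5B, the widely expressed carrier of mitochondria and vesicles, read 10239 on the growing, 9933 on the OIS and 10808 on the RS array. Its 3 probe sets gave log2 ratios between -0.36 and -0.04 in OIS and between -0.07 and 0.19 in RS. Those values lie within or near the probe set SD. The neuronal heavy chain KIF5C was dim, at 58.7 when growing, 23.2 in OIS and 7.8 in RS, so its senescent arrays lay under the floor and its lower ratio is at least 1.29-fold.

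KIF3A and KIF3B, the paired motors of the heterotrimeric kinesin that carries cargo along the cilium and to the cell edge, were higher in OIS to different degrees. KIF3B read 1512 on the growing, 3010 on the OIS and 1764 on the RS array, with the OIS array apart from the other two. It was 1.99-fold higher in OIS, just under 2-fold, with a log2 ratio of 0.99 and 0.69 by a second probe set. KIF3A had signals of 703 when growing, 909 in OIS and 815 in RS, 1.29-fold higher in OIS. KIF3C, an alternative partner, read 381 on the growing, 449 on the OIS and 519.7 on the RS array, and its second probe set gave log2 ratios of -0.05 in OIS and -0.20 in RS. The sign for KIF3C is therefore not shared by its probe sets.

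In the family of vesicle and endosome carriers to which KIF1A belongs, KIF1C and KIF13A differed most. KIF1C, a carrier of integrin-containing vesicles, had signals of 983 when growing, 860 in OIS and 2147 in RS, with the RS array the highest. It was 2.18-fold higher in RS, the single transport kinesin past 2-fold there, and 2.50-fold lower in OIS than in RS. A second KIF1C probe set gave 298 when growing, 296 in OIS and 487 in RS, a log2 ratio of 0.71 in RS, in the same direction and short of 2-fold. KIF13A, which moves recycling endosomes, had signals of 4262 when growing, 2211 in OIS and 4176 in RS. Its OIS array stood apart, 1.93-fold lower than growing cells. The other 3 KIF13A probe sets above the floor gave log2 ratios of -1.83, -0.89 and -1.27 in OIS, and from -0.87 to -0.11 in RS.

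The other members of that family stayed closer to growing cells. KIF1B, which carries mitochondria and synaptic vesicle precursors, read 3351 on the growing, 3037 on the OIS and 4011 on the RS array, and its 3 probe sets above the floor gave log2 ratios from -0.26 to 0.54 in OIS. KIF13B had signals of 286 when growing, 204 in OIS and 213 in RS, 1.40-fold and 1.34-fold lower. KIF16B, a motor of early endosomes, read 469 on the growing, 519 on the OIS and 385 on the RS array, and its second probe set gave the opposite sign in both comparisons.

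The remaining transport kinesins were dim. KIFC3, a minus-end motor linked to cell junctions, had signals of 88.5 when growing, 57.3 in OIS and 134 in RS, 2.34-fold lower in OIS than in RS. Its second probe set read 60.5, 91.6 and 79.2, with OIS higher than RS, so no direction is given for KIFC3. KIFC2 read 74.1 on the growing, 83.9 on the OIS and 94.4 on the RS array. KIF21A, which steadies microtubule ends at the cell cortex, reached 52.6 in RS and was under the floor elsewhere. By brightest probe set alone, KIF1C and KIFC3 made 2 of 13 transport kinesins at least 2-fold lower in OIS than in RS, against 5.27% of measured genes. The second probe set of KIF1C gave a log2 ratio of -0.72, so neither gene passed 2-fold by both probe sets. No transport kinesin was at least 2-fold higher in OIS than in RS, against 5.48% of measured genes.

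**Figure D4:**
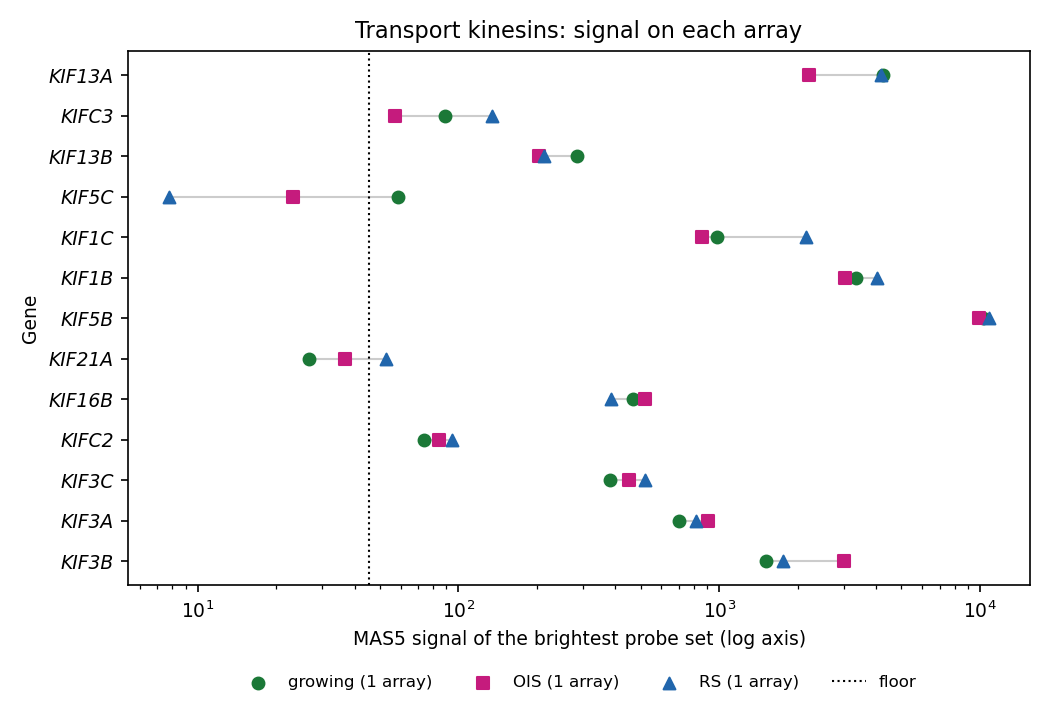
Signal of the brightest probe set of each measured transport kinesin on the growing (circles), OIS (squares) and RS (triangles) arrays, 1 array each, on a log axis, ordered by the OIS ratio; the dotted line is the floor of 45.5. KIF13A is apart in OIS, KIF1C in RS and KIF3B in OIS, and for KIF5B the 3 points nearly coincide.

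In the third class 7 of 11 were measured, and 0 of 7 were at least 2-fold apart from growing cells on the OIS array, against 6.63% of measured genes lower and 4.92% higher. On the RS array 1 of 7, KIF25, was at least 2-fold lower and none higher, against 5.58% and 3.72% of measured genes. KIF2A, a depolymerase of neurons and spindle poles and a relative of KIF2C, had signals of 2585 when growing, 2106 in OIS and 1670.4 in RS. Its ratios of 1.23-fold lower in OIS and 1.55-fold lower in RS were far from those of KIF2C. A second KIF2A probe set gave log2 ratios of -0.17 and -0.36. KIF7, the ciliary regulator of Hedgehog signalling, read 173 on the growing, 102 on the OIS and 265 on the RS array. It was 2.59-fold lower in OIS than in RS and within 2-fold of growing cells in each. KIF9, a kinesin of motile cilia, had signals of 731 when growing, 1375 in OIS and 889 in RS, 1.88-fold higher in OIS. Of its other probe sets above the floor, log2 ratios in OIS were 1.10, 0.55 and 0.00. The last is the one KIF9 probe set whose name does not end in _x_at, an ending that marks possible cross-hybridization, and it was above the floor in RS alone.

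The others of that class were dim. KIF25 read 91.7 on the growing, 117 on the OIS and 37.2 on the RS array, at least 2.02-fold lower in RS and at least 2.57-fold higher in OIS than in RS. KIF25 was no longer 2-fold lower in RS after quantile normalization, with the floor at the 60th percentile or with the median of all its probe sets, and under the last of these and the 60th percentile floor it was not 2-fold apart between OIS and RS. Its other probe set was under the floor on every array. KIF26B had signals of 146 when growing, 105 in OIS and 94.6 in RS. KIF6 and KIF19 were above the floor in growing cells, at 82.0 and 65.5, and KIF19 was under it in both senescent cultures. Among antisense transcripts KIF25-AS1 read 24.5 on the growing, 186 on the OIS and 23.4 on the RS array, at least 4.08-fold higher in OIS than in either other culture. Its other 2 probe sets were under the floor on all arrays. KIF9-AS1 had signals of 64.7 when growing, 82.9 in OIS and 58.2 in RS.

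Genes that work with mitotic kinesins were lower in the same samples. Of 19 measured partners 19 were at least 2-fold lower in OIS, with a median log2 ratio of -2.86, and 19 in RS, with a median of -2.46. Of all measured genes 6.63% were at least 2-fold lower in OIS and 5.58% in RS. CENPE, the kinetochore kinesin whose symbol falls outside the rule, read 2231 on the growing, 307 on the OIS and 405 on the RS array, 7.26-fold and 5.50-fold lower. The kinetochore proteins NUF2 and CENPF were the lowest in OIS at 11.0-fold and 10.7-fold, and CENPF and the spindle protein NUSAP1 the lowest in RS at 9.71-fold and 7.98-fold. The smallest differences were of ECT2, which activates RhoA for cytokinesis, at 2.21-fold in OIS and 2.22-fold in RS, and of INCENP, the scaffold of the passenger complex, at 2.43-fold and 2.32-fold. RACGAP1, the centralspindlin partner of KIF23, was 6.29-fold and 4.03-fold lower. PRC1, the midzone bundler that binds KIF4A, was 8.35-fold and 6.36-fold lower. TPX2, which binds KIF11 and KIF15, was 7.69-fold and 5.80-fold lower.

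Cargo and adaptor genes of transport kinesins had a median of 0.24 in OIS and 0.16 in RS. In OIS 2 of 21 measured passed 2-fold upward and none downward, and in RS none passed it upward and 1 downward. Of all measured genes 4.92% passed it upward and 6.63% downward in OIS, and 3.72% and 5.58% in RS, so these counts are near the background. The 2 higher in OIS were MAPK8IP2, a kinesin light chain scaffold, at 2.38-fold and the light chain KLC4 at 2.30-fold, both with growing signals near the floor, 71.6 and 58.3. The lowest in OIS were TRAK1, the adaptor between mitochondria and kinesin heavy chain, at 1.55-fold, and SPAG9 at 1.44-fold. In RS MAPK8IP3 was 1.80-fold and KLC3 1.52-fold higher, while RAB27A, a small GTPase of secretory vesicles, was 2.39-fold and RAB3A 1.39-fold lower. KIFAP3, the third subunit of the complex of KIF3A and KIF3B, had signals of 1480.1 when growing, 1214 in OIS and 1487 in RS, so it did not share the higher OIS signal of KIF3B.

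The opposing motor and its track also lay near growing cells. Dynein and dynactin genes had a median of -0.02 in OIS, with 0 of 20 measured past 2-fold, and 0.22 in RS, where 1 of 20 passed 2-fold, upward. That gene was the dynein light chain DYNLT3, 2.30-fold higher in RS and 1.73-fold higher in OIS. DCTN6 was 1.32-fold higher in OIS and DYNC1LI2 1.77-fold higher in RS. The lowest was NDE1, a dynein regulator that acts in mitosis, 1.52-fold lower in OIS and 1.51-fold lower in RS, followed by DYNLL2, which read 1979 on the growing, 1454 on the OIS and 1983 on the RS array. Tubulin genes had a median of -0.35 in OIS and 0.02 in RS, with 1 and 2 of 14 at least 2-fold lower and none higher. Of all measured genes 6.63% were at least 2-fold lower in OIS and 5.58% in RS, and 4.92% and 3.72% at least 2-fold higher, so with lists of this size the dynein and tubulin counts are near the background. The beta-tubulin TUBB2B was 3.02-fold lower in OIS and 3.40-fold lower in RS, and TUBD1, the delta-tubulin of centrioles, was 2.28-fold lower in RS. TUBB was 1.78-fold lower in OIS. The highest were TUBG2 at 1.29-fold and TUBE1 at 1.19-fold in OIS, and TUBG2 at 1.72-fold and TUBB2A at 1.30-fold in RS. Tubulin genes are near-identical in parts, so probe sets can read more than 1 of them.

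**Figure D5:**
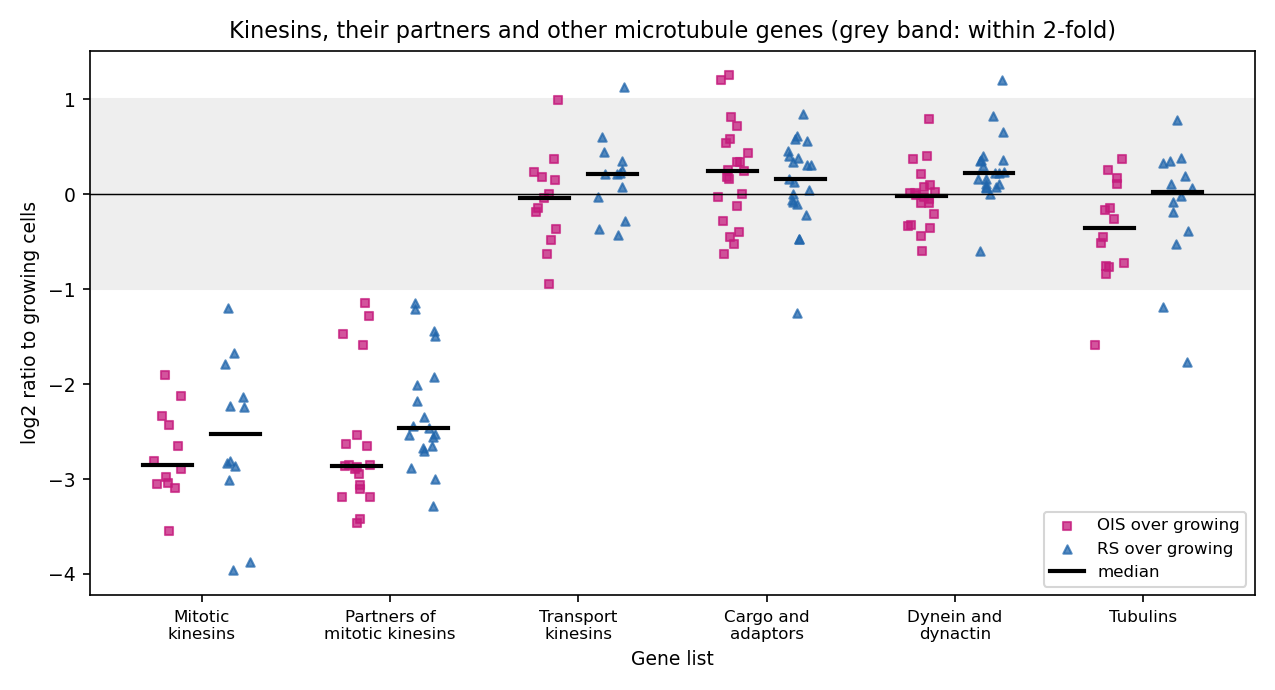
Log2 ratio to growing cells of every measured gene in 6 lists, in OIS (squares) and RS (triangles), with black bars for medians and a grey band for less than 2-fold. Mitotic kinesins and their partners lie below the band, with medians from -2.86 to -2.46, and the other 4 lists centre between -0.35 and 0.24.

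The fibroblast label was read against markers. All 10 fibroblast markers were measured, with summed signals of 163288 when growing, 171475 in OIS and 172374 in RS, and among them S100A4 was 3.21-fold higher in RS. Of 10 endothelial markers 5 were measured and 3 were at least 2-fold higher in OIS, with sums of 1472, 2164 and 2279, and CDH5, TIE1 and KDR were under the floor on all arrays. Of 10 neural markers 5 were measured, with sums of 854 when growing, 1651 in OIS and 985 in RS, most of it SYT1. Of the 5, 1 was at least 2-fold higher in OIS, NEFM at 2.11-fold, and SYT1 was 1.995-fold higher. DCX, NEFL and RBFOX3 were under the floor. Of 8 blood cell markers with a probe set 4 were measured, CD3E, CD14, HBB and ITGAM, none at least 2-fold apart from growing cells. PTPRC was under the floor. Of 10 epithelial markers 3 were measured, and EPCAM was 3.20-fold lower in OIS while CDH1 was under the floor. The part of these differences in the kinesin values was not tested.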

How the data were processed

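The 3 cultures were each measured on 1 expression array with biotin-labelled cRNA. The values the authors deposited are linear intensities of probe sets. Per the submitters' processing notes they come from MAS5, with version and settings not given in the sources used here. The 2% trimmed mean was 497 on every array, so the arrays had been scaled alike, which hides any difference common to most genes. Of 54613 probe sets, 41091 name 1 gene in the platform annotation, 1801 several and 11721 none, and the first group was used. All 45 members matched a RefSeq gene of the same symbol. Ratios, floor, brightest probe set and the 2-fold size are as described above.

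Members, classes and lists were chosen with earlier results of these data known. Named were all measured mitotic kinesins, other members at least 2-fold apart between any 2 arrays, and the 2 highest and 2 lowest of each companion list in each comparison with growing cells; the other members named, CENPE, RACGAP1, PRC1, TPX2, KIFAP3 and the cell type markers were chosen after their values were seen. The 10 alternatives changed normalization, centring, the floor, the filter, the probe set rule or the fold size. The log2 ratios were tested on simulated arrays with known folds planted in bright genes alone. Folds in dim genes, bounds set by the floor and the promoter search were not tested that way. Calculations used Python 3.11.15, numpy 2.4.6, pandas 2.3.3 and matplotlib 3.10.9.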

Additional observations from a re-analysis of the deposited data

How the results depend on the processing

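With 1 array per condition no replicate could be left out, and the number of arrays limits every value. Of 174 class medians and counts recomputed under 10 alternatives, 152 moved by less than the probe set SD or, for counts, stayed within 1.5 times. Without probe sets ending in _s_at or _x_at, 8 mitotic kinesins kept a probe set above the floor and 7 were at least 2-fold lower in OIS and 7 in RS, all but KIF23, while 1 transport kinesin, KIF13A, was lower in OIS. By the second brightest probe set, available for 4 mitotic kinesins, 2 were lower in OIS and 2 in RS, with medians of -1.51 and -1.70; 1 transport kinesin was lower in OIS, 0 were higher in RS and 0 lower in OIS than in RS. That probe set reversed KIFC3 in OIS over RS, to 0.21 from -1.23. With the floor at the 25th percentile, 1 transport kinesin was lower in OIS, 2 were lower in RS and 1 higher in OIS than in RS, and 1 mitotic kinesin, KIF2B, was higher in RS and 1, KIFC1, higher in OIS than in RS. With no floor and a pseudocount of 16, 1 transport kinesin was lower in RS. After quantile normalization 1 transport kinesin, KIF3B, was at least 2-fold higher in OIS. With the floor at the 60th percentile 1 transport kinesin was lower in OIS than in RS. With the median of all probe sets, and likewise at 3-fold, 0 transport kinesins were higher in RS and 0 lower in OIS than in RS. Of 12 mitotic kinesins, 11 were at least 2-fold lower in OIS and 10 in RS with the median of all probe sets. KIF20B dropped out in both cultures and KIF22 in RS. At 3-fold, 12 were lower in OIS and 11 in RS. Fewer members had a value where probe sets were left out; otherwise the cause was not tested. Of single members, 755 of 837 recomputed ratios moved by less than the probe set SD. Median centring could change no value, because the median over all measured genes was 0.00 in each comparison. Leaving out the filter on low values could change no count and no single ratio. The 152 of 174 and the 755 of 837 include these fixed outcomes.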

Other observations

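The promoter letters were also counted over all measured genes with a window, as values with no test. CHR letters were present in 30.03% of 706 genes at least 2-fold lower in OIS, 14.8% of 9653 genes within 2-fold and 20.2% of 511 genes at least 2-fold higher. For RS the shares were 30.1% of 595 lower, 15.1% of 9889 within 2-fold and 19.2% of 386 higher genes. Both CHR and CCAAT letters were present in 17.3% of the genes lower in OIS and 17.6% of those lower in RS, against 5.93% and 5.94% of genes within 2-fold. The 2 measured mitotic kinesins without TTTGAA or TTCGAA were KIF20A and KIF2C, and other forms of the CHR were not searched for. KIF2C was 7.01-fold lower in OIS and 8.09-fold lower in RS, and KIF20A 7.89-fold and 15.6-fold.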
